A study of Mus musculus with 8 samples.

Results

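Myosin heavy chains are the motor subunits of the muscle and nonmuscle myosins that pull on actin. The deposited table held 9 of their genes with a part in heart or muscle, taken by symbol from its 48440 entries: Myh6, Myh7, Myh7b, Myh3 and Myh8, which build sarcomeric or muscle-type myosins, and Myh9, Myh10, Myh11 and Myh14, which build nonmuscle and smooth muscle myosins. The genes were chosen by family and with earlier results of the same libraries in view, in which Myh7 counts differed between litters. Differences between litters are therefore given for these 9 genes as a description and without a test. RNA came from cardiomyocytes purified from hearts of C57BL6/J pups aged 2 days, and the labels name no treatment, transgene or deletion. The 8 libraries come from 8 hearts, a brother and a sister from each of 4 litters, so there are 4 males and 4 females. The labels name neither the purification step nor the chambers used. Whatever the 2 hearts of a litter shared besides their parents, such as handling, cannot be told apart from the litter.

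Each myosin II motor holds a pair of heavy chains with an ATPase head and a coiled tail, and the heavy chain sets the speed at which the motor cycles. Myh6 encodes the fast alpha chain and Myh7 the slow beta chain of the cardiac thick filament. In the mouse ventricle Myh7 is the main form before birth and Myh6 afterwards, a switch that thyroid hormone drives, and Myh7 returns in the stressed adult heart. Nonmuscle myosins move the cell cortex and close the contractile ring when a cell divides, which cardiomyocytes of this age still do.

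Total counts per library ranged from 14226342 to 24910243, with the female of litter 3 the shallowest. The mitochondrial share of counts was 13.4% to 15.2% in 7 libraries and 18.5% in the male of litter 4. The cell type given in the labels was checked against 8 cardiomyocyte markers (Actn2, Tnnt2, Tnnc1, Tnni3, Ryr2, Mybpc3, Ttn and Pln), which summed to between 39647 and 42114 CPM in each library, where CPM are counts scaled to a common library total, corrected by the trimmed mean of M values. Markers of 8 fibroblast genes summed to between 32.4 and 243 CPM, and those of 7 endothelial genes to between 13.8 and 135 CPM. Among skeletal muscle markers, Myod1 and Myf5 had 0 counts in every library, which allows at most 0.211 CPM in the shallowest, and the list of 6 summed to at most 2.48 CPM.

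Myh6 and Myh7 lie next to each other on the minus strand of chromosome 14 (GENCODE M21, GRCm38), at chr14:54941921-54966927 and chr14:54970684-54994626. The antisense gene Mhrt, a long noncoding RNA named for the myosin locus, starts between them on the plus strand and runs over 3666 bases of Myh7, at chr14:54968678-54974349. Each cardiac chain gene also carries a microRNA in an intron of its longest transcript: Mir208a in intron 29 of Myh6, Mir208b in intron 31 of Myh7 and Mir499 in intron 19 of Myh7b, which lies on the plus strand at chr2:155611212-155634307. Their mature sequences (RefSeq, GRCm38.p6) are shown because the host genes are the main subject here, with the seed, bases 2 to 8 from the 5′ end, in capitals.
miR-208a-3p, chr14:54949072-54949093, minus strand: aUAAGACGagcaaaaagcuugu
miR-208b-3p, chr14:54975710-54975731, minus strand: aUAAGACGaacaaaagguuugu
miR-499-5p, chr2:155622893-155622913, plus strand: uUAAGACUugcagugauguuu
The hosts of miR-208a and miR-208b thus carry microRNAs of the same seed, which differ at 3 positions outside it (G10A, A16G and C18U, from miR-208a to miR-208b, counted from the 5′ end). The seed of miR-499 differs from theirs at its last base alone (G8U).

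The starts of both genes were searched for 4 motifs on both strands, over the 250 bases before the RefSeq transcription start (GRCm38.p6). That start of Myh6 lies inside the gene as GENCODE draws it, from a transcript that begins further upstream, so positions and matches hold for the RefSeq start. Stretches of 100 bases from their far end are shown because they hold the match found in each, in capitals: CATTCC, the core of the M-CAT element to which TEAD factors bind, on the reverse strand.
Myh6, chr14:54966758-54966857, minus strand: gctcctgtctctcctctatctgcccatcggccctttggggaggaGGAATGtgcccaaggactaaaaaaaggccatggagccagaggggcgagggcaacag
Myh7, chr14:54994777-54994876, minus strand: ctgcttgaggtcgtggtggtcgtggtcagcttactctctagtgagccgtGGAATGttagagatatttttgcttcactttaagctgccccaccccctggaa
The match began 206 bases before the start of Myh6 and 201 bases before that of Myh7. It is a frequent word: 12.64% of 32851 promoters of the same length hold it. The TATA box word TATAAA, which 12.37% of the promoters hold, was not in either window. Nor was the nuclear receptor word AGGTCA, which 14.02% hold. The GATA word TGATAA, which 7.942% hold, was also missing from both.

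The coding sequences of Myh6 and Myh7 are close to each other, which bears on how far reads can separate them. Of 6014 windows of 100 bases (the read length) in the longest Myh6 transcript, 687 (11.42%) also occur in Myh7, and the same 687 make up 11.21% of the 6131 windows of Myh7. Their longest identical coding run is shown because a read from inside it has no mark of its gene. It covers coding bases 4246 to 4490 of the 5814 of Myh6 and 4240 to 4484 of the 5805 of Myh7, in the part that encodes the tail.
Myh6 and Myh7, 245 bases, minus strand of chromosome 14: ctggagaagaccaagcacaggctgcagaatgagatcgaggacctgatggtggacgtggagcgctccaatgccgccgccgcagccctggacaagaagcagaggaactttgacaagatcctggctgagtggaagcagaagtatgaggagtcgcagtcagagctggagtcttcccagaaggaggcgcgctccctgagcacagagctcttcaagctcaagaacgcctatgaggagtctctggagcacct
How the authors' counting placed such reads is not given in the sources used here, so the split between both genes has an uncertain part. Myh7b, Myh11 and Myh14 shared 0 windows with any other gene. Myh9 and Myh10 shared 23 windows with each other (0.314% and 0.299%), Myh3 shared 1.146% with Myh13, and Myh8 shared 6.612% with other skeletal chains.

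Levels between genes were compared as CPM per kilobase of the longest transcript. Over the 8 libraries, Myh6 averaged 3796 ± 809 CPM per kb (SD, n = 8), Myh7 290 ± 310, Myh7b 84.0 ± 9.32, Myh10 16.6 ± 1.82 and Myh9 7.90 ± 1.63. The lower end held Myh14 at 2.07 ± 0.376, Myh11 at 0.542 ± 0.354, Myh8 at 0.111 ± 0.0711 and Myh3 at 0.0190 ± 0.0173 CPM per kb. Neighbours in this order were separated in all 8 libraries with no overlap of their ranges, except for 3 pairs. Myh7 was above Myh7b in 5 of 8 libraries, Myh11 above Myh8 in 7 of 8, and Myh8 above Myh3 in 8 of 8 with overlapping ranges. The 3 libraries in which Myh7 lay below Myh7b were both of litter 1 and the female of litter 2. The plot of levels by gene shows that the spread of Myh7 was the widest among the 4 most abundant genes.

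**Figure D1:**
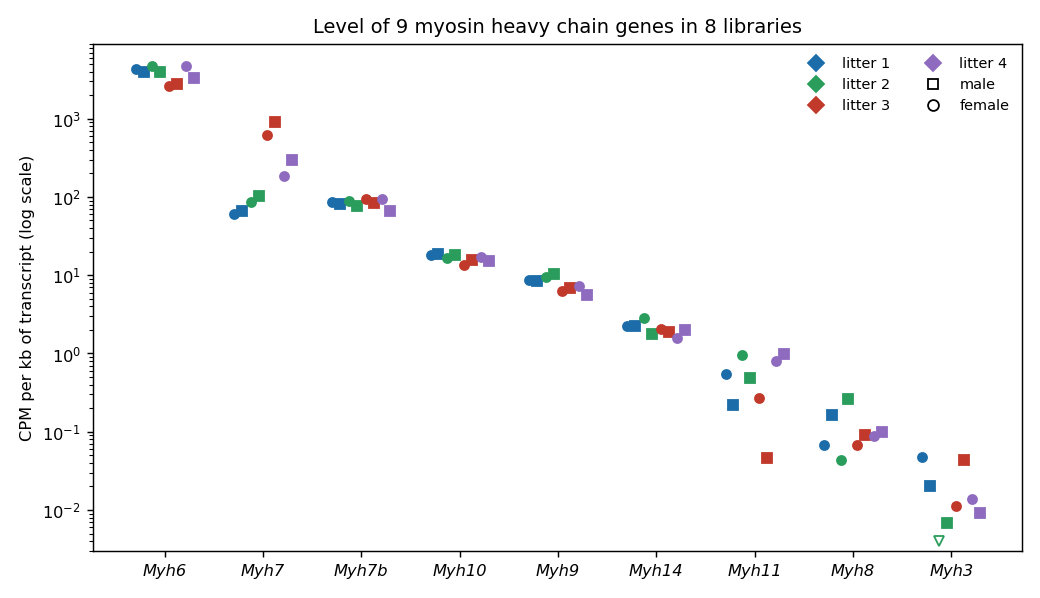
Level of the 9 myosin heavy chain genes in 8 libraries, as CPM per kb of transcript on a log scale. Colours mark litters, squares males and circles females, and the open triangle marks the library with 0 counts of Myh3. Myh7 spans 60.7 to 899 CPM per kb with both libraries of litter 3 on top, while Myh7b spans 66.6 to 95.3.

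Myh7, the slow beta chain, had 411 CPM in the male and 378 CPM in the female of litter 1, and 642 and 535 CPM in the male and female of litter 2. In litter 3 it had 5598 CPM in the male and 3890 CPM in the female. The male and female of litter 4 had 1861 and 1156 CPM. The order of the litters, 3, 4, 2 and 1, was the same in males and females, and no litter overlapped another. The mean of litter 3 was 4744 ± 1208 CPM (SD, n = 2), and the fitted difference of litter 3 from the mean of the other 3 litters was 2.74 on the log2 scale (SE 0.08), a 6.68-fold higher level. Leaving out litter 1 or litter 4 gave 2.33 or 3.29. Among the 13771 genes tested, 18 had a wider range of fitted litter means than the 3.56 of Myh7 (log2).

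Myh6, the fast alpha chain, was the most abundant of the 9 genes in each library. It had 24253 and 25993 CPM in the male and female of litter 1, and 24342 and 28563 CPM in those of litter 2. Litter 3 had the lowest levels, at 16924 CPM in the male and 16097 CPM in the female. The male of litter 4 had 20391 CPM and its sister, with 29075 CPM, the highest level of all. Litter 3 did not overlap the other libraries, and its fitted difference from them was -0.61 on the log2 scale (SE 0.09). Without the female or the male of litter 3 that difference was -0.44 or -0.79.

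The ratio of both chains needs no scaling of the libraries, since it is taken within each. Myh7 counts per 100 Myh6 counts were 1.69 and 1.46 in the male and female of litter 1, 2.64 and 1.87 in litter 2, 33.1 and 24.2 in litter 3, and 9.13 and 3.98 in litter 4. The libraries therefore fell into litters in the same order as for Myh7 alone. As a share of both chains, Myh7 made up 1.43% of counts in the female of litter 1 (95% Wilson interval 1.41% to 1.46%) and 24.9% in the male of litter 3 (24.74% to 24.98%). Such intervals cover counting error only, since reads without molecular identifiers are not independent molecules. The mean log2 ratio of litter 3 was 3.36 above the mean of the other litters, and 3.92 above it without litter 4. Myh6 and Myh7 together took 2.04% to 2.96% of all counts. Their summed level was 19986 CPM in the female and 22522 CPM in the male of litter 3, and 22252 to 30231 CPM in the other 6 libraries. In bulk RNA, fewer cells with a transcript and less of it per cell cannot be told apart.

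**Figure D2:**
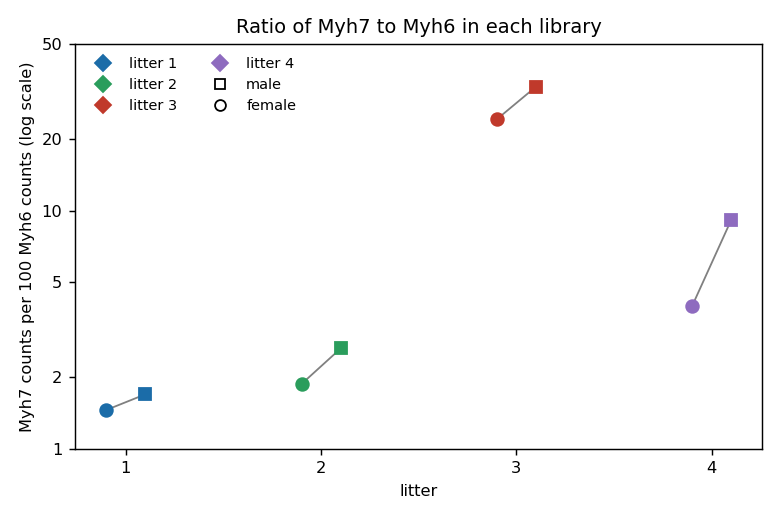
Myh7 counts per 100 Myh6 counts in each library, on a log scale, by litter. Squares are males, circles are females, and a line joins the 2 hearts of a litter. The male lies above the female in each litter, and litter 3, at 24.2 and 33.1, lies above the other 6 libraries, at 1.46 to 9.13.

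Mhrt, an antisense RNA that overlaps Myh7, ran the other way. It had 73.9 and 70.2 CPM in the male and female of litter 1, 65.8 and 60.3 CPM in litter 2, 28.3 and 40.1 CPM in litter 3, and 29.5 and 51.7 CPM in litter 4. Litter 3 and the male of litter 4 held the 3 lowest values, so litters 3 and 4 overlapped. Its fitted difference between litter 3 and the others was -0.76 on the log2 scale (SE 0.15). It overlaps Myh7, by which litter 3 was picked, so this too is a description without a test. Mhrt counts per 100 Myh7 counts went from 18.5 in the female of litter 1 to 0.505 in the male of litter 3. Per 100 Myh6 counts, Mhrt had 0.167 and 0.249 in the male and female of litter 3, within the 0.145 to 0.305 of the other libraries. The libraries were made with a stranded kit per the labels, but whether counting used the strand is not given in the sources used here. Of 729 windows of the Mhrt transcript, 20.03% occur in Myh7 on the opposite strand and 9.877% occur in Myh6 on the opposite strand. Without strand such reads cannot be told apart, and their part in the Mhrt counts was not tested. GENCODE M21 places other antisense genes over Myh7 as well. Gm31251 spans 12209 bases of it with 2976 of its exon bases, against 1190 exon bases under Mhrt. The deposited table had no entry under that symbol. Gm29015 spans 331 bases, inside the stretch that Mhrt covers, and its fitted difference in litter 3 was 0.06 (SE 0.19). Gm17428, annotated as protein-coding, lies on the plus strand opposite intron 30 of Myh7. It had 2.34 and 2.89 CPM in the male and female of litter 3 and 3.97 to 5.80 CPM elsewhere.

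The entries of the 3 intronic microRNAs drew few counts. They span 83 bases (Mir208a), 77 bases (Mir208b) and 79 bases (Mir499), less than the read length of 100. The primary transcripts, which reach beyond these entries, were not measured by them. Mir208a had 13 to 43 counts and did not pass the test between litter 3 and the others (log2 difference 0.08, SE 0.34, edgeR adjusted p = 0.891). Mir499 had 3 to 11 counts and Mir208b 0 to 5 counts, with 5 in the male of litter 3, and both were too low to be tested. Libraries of this kind do not measure the mature microRNAs whose sequences stand above.

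**Figure D3:**
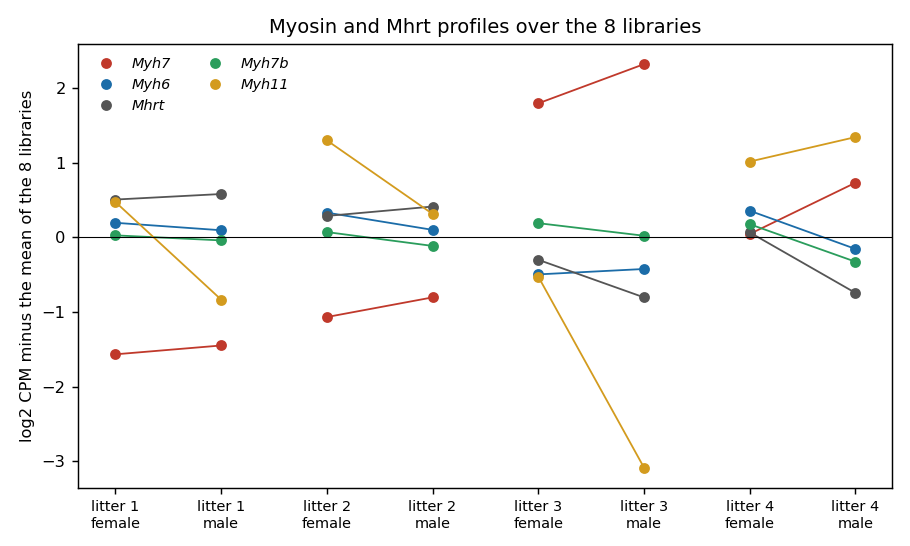
Profiles of Myh7, Myh6, Myh7b, Myh11 and Mhrt over the 8 libraries, as log2 CPM minus the mean of each gene. Lines join the 2 hearts of a litter. Myh7 lies highest in litter 3, where Myh6 and Mhrt lie below their means, and Myh7b stays near 0 in all libraries.

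Myh7b encodes a slow-type chain that hosts miR-499, and its level was the steadiest of the muscle-type genes relative to its mean. It had 501 and 524 CPM in the male and female of litter 1, 475 and 541 CPM in litter 2, 523 and 587 CPM in litter 3, and 411 and 582 CPM in litter 4. The litters overlapped, and the fitted litter means ranged over 0.17 on the log2 scale against 3.56 for Myh7. Within each litter the male was the lower library, as described with the sexes.

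The developmental skeletal chains were close to the limit of these libraries. Myh8, the perinatal chain, had 6 to 39 counts, or 0.270 to 1.62 CPM, highest in the males of litters 2 and 1. Myh3, the embryonic chain, had 3, 7, 1, 0, 6, 1, 1 and 2 counts in the male and female of litters 1 to 4 in turn. Its count of 0 in the female of litter 2 allows up to 0.137 CPM. Myh3 was the 1 gene of the 9 that did not pass the filter on low counts, so 8 were tested. Of the adult skeletal and other chains outside the 9, Myh1, Myh4 and Myh15 had 0 counts in all 8 libraries, and Myh2 and Myh13 had at most 2.

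Among the nonmuscle and smooth muscle genes, Myh10, the nonmuscle IIB chain, was the most abundant. It had 147 and 140 CPM in the male and female of litter 1, 141 and 128 CPM in litter 2, 122 and 105 CPM in litter 3, and 117 and 133 CPM in litter 4. Myh9, the nonmuscle IIA chain, had 62.0 and 65.2 CPM in litter 1, 77.5 and 70.3 CPM in litter 2, 51.2 and 47.3 CPM in litter 3, and 42.0 and 53.9 CPM in litter 4, males first. For both genes litters 3 and 4 overlapped, and the lowest library was the female of litter 3 for Myh10 and the male of litter 4 for Myh9. Myh14, the nonmuscle IIC chain, ranged from 10.3 CPM in the female of litter 4 to 18.3 CPM in the female of litter 2, whose brother had 11.5 CPM. Of the counts of these 4 genes, Myh10 took 63.2% ± 3.02 (SD, n = 8), Myh9 28.4% ± 2.95, Myh14 6.62% ± 1.20 and Myh11 1.74% ± 1.19. Over the 8 libraries these shares ranged from 57.5% to 65.8% for Myh10, from 23.6% to 33.2% for Myh9 and from 0.163% to 3.67% for Myh11.

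Myh11, the smooth muscle chain, was low and uneven. The males of litters 1 to 4 had 1.45, 3.20, 0.304 and 6.53 CPM and the females 3.58, 6.34, 1.79 and 5.21 CPM, from 7 to 141 counts. The male of litter 3 was the lowest library, and its sister overlapped litter 1. Litter 3 differed from the others by -2.15 on the log2 scale (SE 0.43), which became -3.42 without its female and -1.45 without its male. Some smooth muscle and pericyte markers moved with it. The list of 9 summed to 1048 and 1057 CPM in litter 3 and to between 1567 and 1676 CPM in the other 6 libraries, and 4 of 9 fell in litter 3 (Acta2, Smtn, Pdgfrb and Rgs5). The other 5 did not pass, among them the pericyte markers Abcc9 and Cspg4, at 0.08 and 0.14. Their part in the level of Myh11 was not tested.

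The fitted differences of litter 3 from the mean of the other litters were -0.30 (SE 0.09) for Myh9, -0.24 (SE 0.08) for Myh10 and -0.08 (SE 0.15) for Myh14 on the log2 scale. With library size alone as the scaling those of Myh9 and Myh10 were -0.26 and -0.20. They were -0.27 and -0.20 without litter 1 and -0.15 and -0.24 without litter 2. When the litter 3 female was left out they were -0.21 and -0.14. They were larger without litter 4, at -0.47 and -0.29, and without the litter 3 male, at -0.41 and -0.35. Over all genes, whose calls are given as the background of the lists further on, 32.1% differed between litters and 28.3% differed in litter 3. Library size alone gave 2419 higher and 1698 lower genes of all tested in litter 3, where the trimmed mean of M values gave 1871 and 2032.

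Sex was not used to pick the genes, so the sexes were tested. None of the 8 heavy chains tested passed the threshold between males and females by edgeR's quasi-likelihood test with Benjamini-Hochberg adjustment over 13771 genes, of which 0.0436% passed. At an unadjusted p under 0.05 there were 2, Myh7b and Myh8, where 2.22% of all genes had one, and DESeq2 called 0 heavy chains. In both the males did not overlap the females, as in 2.07% of all genes. Myh7b averaged 477 ± 48.5 CPM (SD, n = 4) over the males against 559 ± 30.8 CPM over the females, a difference of -0.23 on the log2 scale (SE 0.09, edgeR adjusted p = 0.9996). The males, at 411 to 523 CPM, did not overlap the females, at 524 to 587 CPM, and the male was lower in 4 of 4 litters. Myh8 averaged 0.951 ± 0.489 CPM over the males against 0.410 ± 0.113 CPM over the females, a difference of 1.21 (SE 0.41, edgeR adjusted p = 0.9996). Its males, at 0.564 to 1.62 CPM, lay just above its females, at 0.270 to 0.546 CPM, on 6 to 39 counts per library.

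The remaining heavy chains overlapped between the sexes. Myh7 averaged 2128 ± 2400 CPM over the males against 1490 ± 1635 CPM over the females, a difference of 0.52 with an SE of 0.87 on the log2 scale, which is smaller than its SE in libraries that span 378 to 5598 CPM. Myh6 had 21477 ± 3551 and 24932 ± 6042 CPM, a difference of -0.22 (SE 0.19). For Myh9, Myh10 and Myh14 the differences were -0.03 (SE 0.18), 0.06 (SE 0.11) and -0.16 (SE 0.16), and for Myh11 the difference was -0.59 (SE 0.67).

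Comparing each male with the female of its own litter takes the litter out. Myh7 was then higher in the male in 4 of 4 litters, by 0.12, 0.26, 0.53 and 0.69 on the log2 scale in litters 1 to 4. In the fit with litter as a replicate block the difference was 0.40 with an SE of 0.08 and an edgeR adjusted p of 0.0961, so Myh7 did not pass there either. None of the 8 passed in that fit, which called 0.211% of all genes. At an unadjusted p under 0.05 there were 5 of 8 (Myh6, Myh7, Myh7b, Myh8 and Myh11), where 11.6% of all genes had one. Myh6 was lower in the male in 3 of 4 litters, with a blocked difference of -0.19 (SE 0.08, edgeR adjusted p = 0.385), and Myh7b had -0.23 (SE 0.07, edgeR adjusted p = 0.28). The plot of differences within litters shows that the litter 4 pair was the most unlike for Myh6, Myh7 and Myh7b. The male of that pair is also the library with the mitochondrial share of 18.5%, whose part in these differences was not tested.

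**Figure D4:**
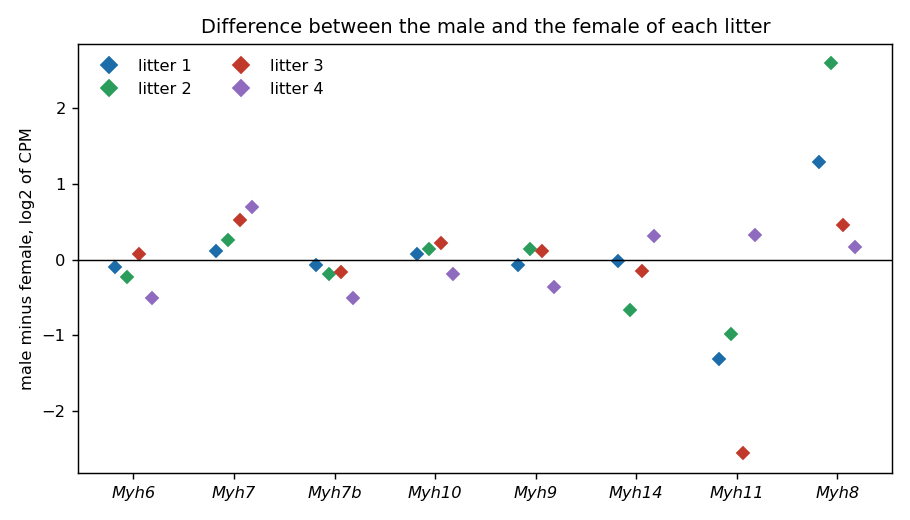
Male minus female within each litter for the 8 tested heavy chains, as log2 of CPM, with 1 point per litter. Points above 0 are higher in the male. Myh7 and Myh8 lie above 0 and Myh7b below 0 in 4 of 4 litters.

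The ratio of Myh7 to Myh6 was higher in the male in 4 of 4 litters, by 0.22, 0.49, 0.45 and 1.20 on the log2 scale, with a mean of 0.59. As 4 males against 4 females, an exact two-sided permutation test gave p = 0.6857, where 0.0286 is the smallest p possible. The male mean lay above the female mean except without the male of litter 3, when the difference was -0.23. Within litters, the exact sign permutation gave p = 0.125, which is the smallest that 4 pairs allow, so this design could not have passed a threshold of 0.05. With both libraries of litter 3 left out, a choice made after the values were seen, the difference was 0.64 (exact permutation p = 0.6).

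The partners of the heavy chains were followed in litter 3. That litter was picked because Myh7 was highest there, and the lists were drawn up with earlier results known, so the adjusted p-values below describe these libraries and are no independent support. Of all genes tested, 13.6% were higher and 14.8% lower in litter 3, against which the counts of each list are to be read. Of 5 sarcomeric light chains tested, 2 fell, both ventricular: Myl2, the regulatory light chain, had 9238 and 9780 CPM in litter 3 and 11039 to 13723 CPM elsewhere (log2 difference -0.39, SE 0.06, edgeR adjusted p = 0.000424), and Myl3, the essential light chain, changed by -0.36 (SE 0.06). Of 10 thick filament partners tested, 1 rose and 3 fell, and 1 fell with library size alone, without litter 1 or without either library of litter 3. Myom2, an M-band protein, rose from a range of 1006 to 1360 CPM to 1632 and 1735 CPM (0.44, SE 0.06). Mybpc2, the fast form of myosin-binding protein C, fell by 1.03, with 4.13 and 4.77 CPM against 4.66 to 13.0 CPM, so that its groups overlapped. Mybpc3, the cardiac form, and Myom1 fell by 0.20 and 0.20; both calls were lost with library size alone, without litter 1 or without either library of litter 3, and that of Mybpc3 also without litter 2. Smyd1, a methyltransferase needed for thick filament assembly, was the 1 of 7 folding and turnover genes to pass and fell by 0.35.

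Genes of the fetal and adult programmes that go with the cardiac chain switch were mixed. Of 9 fetal isoforms and peptides, Nppa and Cacna1h rose, Ckb fell and 6 did not pass. Nppa, the atrial natriuretic peptide, had 1176 and 1511 CPM in litter 3 against 178 to 475 CPM elsewhere (log2 difference 2.26, SE 0.21, edgeR adjusted p = 2.14e-05). The slow skeletal troponin Tnni1, the fetal form in heart, differed by 0.02 (SE 0.05) and did not pass. Nor did Acta1, the skeletal actin of the fetal heart, at -0.22 (SE 0.17). Over 11 alternatives Acta1 ran from -0.45 to -0.0015 and passed in 2, and Tnni1 ran from -0.048 to 0.15 and passed in 1. Of 12 adult isoforms, 0 rose and 6 fell (Mb, Myl2, Myl3, Cox7a1, Cox8b and Atp2a2), but 1 or 2 rose in 9 of 11 alternatives (2 under DESeq2, with 7 lower) and 4 fell without either library of litter 3. Myoglobin (Mb) moved most, from 5318 to 6032 CPM down to 3458 and 3736 CPM, a log2 difference of -0.65 (SE 0.06). The medians of the lists were -0.09 and -0.20, against 0.00 over all genes tested. Cacna1h did not pass without litter 1 or without the male of litter 3. Cox8b did not pass without either library of litter 3, and Atp2a2 did not pass without either of them or without litter 1.

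Of 17 tested regulators known to act on Myh6 or Myh7, 3 rose and 2 fell in litter 3, the largest difference being 0.30, and the median of the list was 0.15. Rxra, a partner of the thyroid hormone receptors, had 76.1 and 79.5 CPM against 55.4 to 70.4 CPM (0.30, SE 0.06, edgeR adjusted p = 0.00406). Thra, the main thyroid hormone receptor of the heart, rose by 0.17 (SE 0.06, edgeR adjusted p = 0.04) and overlapped the other libraries. Tbx5 rose by 0.24, and Sox6 and the chromatin remodeller Smarca4 fell by 0.29 and 0.28. Without the female of litter 3, 0 of 17 passed, and without its male 2 did. Without litter 1, 1 rose and 1 fell, and with library size alone 7 rose and 1 fell. Of these genes, Thra passed in 6 of 11 alternatives and was lost also without litter 1 or 2 and with no filter on low counts. Rxra, Tbx5 and Sox6 did not pass without litter 1, Tbx5 and Sox6 did not pass under DESeq2, and Sox6 did not pass with library size alone. Tead1, a TEAD factor, differed by 0.06 (SE 0.05, edgeR adjusted p = 0.462). Its binding at the M-CAT core words printed above was not measured.

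Of 12 tested genes that control nonmuscle myosin, 2 rose, 5 fell and 5 did not pass in litter 3. Those that fell were Racgap1, Anln, Cit and Ect2, which act at the contractile ring of dividing cells, and Mylk, the myosin light chain kinase of smooth muscle. Racgap1 had 7.03 and 10.4 CPM in litter 3 and 19.9 to 44.9 CPM elsewhere (log2 difference -1.75, SE 0.14, edgeR adjusted p = 5.57e-06). Anln, which links the ring to actin, had 7.38 and 10.8 CPM against 15.2 to 45.1 CPM (-1.53, SE 0.15). Rock2, a kinase that activates nonmuscle myosin, rose by 0.49 (SE 0.06), with 267 and 279 CPM in litter 3 above each of the other 6 libraries, and Ppp1r12a, a subunit of the myosin phosphatase, rose by 0.21. The 4 ring genes and Rock2 passed under each of 11 alternatives. Ppp1r12a did not pass without litter 4 or without either library of litter 3. Of 5 nonsarcomeric light chains, Myl12b rose by 0.44, which did not pass without the male of litter 3, and Myl9, the smooth muscle form, fell by 0.57. Between the sexes, 0 of the 75 genes tested from the partner lists passed in edgeR, with or without the litter block, and 19 and 4 had an unadjusted p under 0.05, where 11.6% and 2.22% of all genes did.

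**Figure D5:**
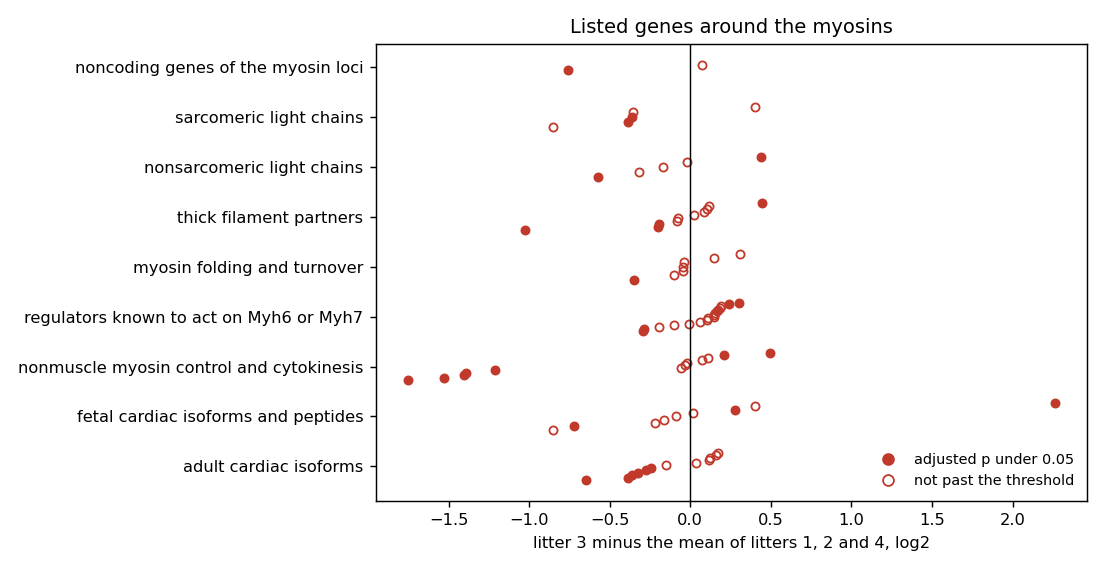
Difference of litter 3 from the mean of litters 1, 2 and 4 for the listed genes, as log2, with 1 point per tested gene. Filled points have an adjusted p under 0.05 by edgeR. Nppa stands at 2.26, and 5 of the nonmuscle myosin control genes stand below -1.2.

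Markers of other cells also moved with litter 3 and are given beside these results. The fibroblast list summed to 32.4 and 51.8 CPM in litter 3 and to 108 to 243 CPM elsewhere, and 6 of 8 genes fell. The endothelial list summed to 15.0 and 16.7 CPM, within the 13.8 to 135 CPM of the other libraries, and 5 of 7 fell, none of which passed without litter 2 or without the female of litter 3. Of 6 atrial markers, Nppa and Dkk3 rose, and the differences of 4 of 6 were above 0 (median 0.57). The list summed to 1338 and 1631 CPM in litter 3, mostly Nppa, and to 214 to 861 CPM elsewhere. Myl7, which defines atrial cardiomyocytes, had 36.0 and 18.3 CPM there and 6.97 to 152 CPM in the other 6 libraries. It did not pass, at -0.85 (SE 0.54), nor did Bmp10, an atrial growth factor, at 0.83 (SE 0.54). Over 11 alternatives Myl7 ran from -1.15 to -0.45 and Bmp10 from 0.18 to 1.60, and each passed in 2. Of 4 ventricular markers Irx4 and Hey2 rose and Myl2 and Myl3 fell. Dkk3 passed in 6 of 11 alternatives and was lost without litter 1, without either library of litter 3, under DESeq2 and with a mean of at least 50 counts. Hey2 was lost without litter 1 or without the male of litter 3. The 5 erythroid markers summed to 528 and 184 CPM in litter 3 and to 97.5 to 243 CPM elsewhere, and Alas2 and Hbb-bt rose, neither of which passed under DESeq2 or without the male of litter 3. Between the sexes, 5 of 8 fibroblast genes rose in males in the fit with the litter block, by 0.67 (Col3a1) to 1.14 (Dcn) on the log2 scale, and 1 of 7 endothelial genes, Cldn5, fell, where that fit called 0.211% of all genes. Without the block 0 genes of either list passed edgeR's test, and at an unadjusted p under 0.05 there were 0 fibroblast genes and 1 endothelial gene. The part of these markers in the levels of the heavy chains was not tested.

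Genes most like Myh7 were ranked by the root mean square difference of their centred log2 CPM over the 8 libraries, where the profile of Myh7 itself has a size of 1.39. The 5 closest among those tested were Sult1a1 (0.44), Gm4117 (0.49), Sema5a (0.53), Dusp26 (0.56) and Gria1 (0.57). Sult1a1, a sulfotransferase, had 14.1 and 12.9 CPM in litter 3, 2.79 and 2.14 CPM in litter 4, and 0.522 to 1.75 CPM in litters 1 and 2. It thus followed the same order of litters as Myh7, at levels near 1 CPM at its low end. Sema5a, a semaphorin, had 41.1 and 36.5 CPM in litter 3 and 5.35 to 12.8 CPM elsewhere. Closest to the mirror image were Pif1 (0.38), Efcab11 (0.41) and Tuba8 (0.41). Tuba8, an alpha tubulin, had 23.6 and 23.0 CPM in litter 1, 12.3 and 16.8 CPM in litter 2, 10.2 and 12.2 CPM in litter 4, and 2.26 and 3.37 CPM in litter 3. Pif1, a DNA helicase, had 7.75 CPM in the male of litter 1 and 0.564 CPM in the male of litter 3. These genes were found by their likeness to Myh7 in the same libraries, so their values are a description.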

How the data were processed

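The values are whole-number counts as the authors deposited them, unscaled, with a gene symbol in each line and 8 columns, each a library. Reads were aligned with STAR 2.7.3a to mm10, per the submitters' processing notes; the counting program, annotation and strand setting are not given in the sources used here. The labels name both poly(A) RNA and a total RNA kit. The heavy chains and the lists of partners and markers were chosen with earlier results of these data known. Counts were tested with edgeR 4.0.16 in R 4.3.3 (quasi-likelihood F test, trimmed mean of M values, filterByExpr on sex, 13771 genes, Benjamini-Hochberg adjustment, threshold 0.05). The sexes were fitted without a litter term; litter 3 was compared with the mean of the other litters in a model of litter and sex. DESeq2 1.42.0 was an alternative. The labels give the replicate number as the litter, so it pairs brother and sister: with the means of each sex taken off, their correlations across genes were 0.506, 0.503, 0.696 and 0.367, against -0.482 to 0.27 for other pairs. All 9 heavy chains were named, up to 4 genes per list by size of change among those past the threshold, 5 genes like Myh7 and 3 like its mirror. A few further listed genes were named after their values were seen. In simulated counts for 13771 genes, the sex test recovered 91.0% of genes changed 2-fold and the litter 3 test 95.5%. The changed genes averaged above 2 CPM, their spread followed the trend over all genes, and libraries were drawn independently. The rate of the sex test does not carry over to Myh7, whose sex difference had an SE of 0.87, or to Myh8, below 2 CPM. CPM per kb used the longest GENCODE M21 transcript. Each replicate is a separate heart.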

Additional observations from a re-analysis of the deposited data

Results flagged for a closer look

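The ratio of Myh7 to Myh6 in the female of litter 3, 24.2 Myh7 counts per 100 Myh6 counts, stood far from the other females, which ran from 1.46 to 3.98. The gap to the nearest of them was 0.889 of the whole range, or 0.642 of it on the log2 scale, where it would not have stood out. Of 30 such groups of 4 libraries examined, 1 stood out in this way. Chance gives about 1 in 20 groups, or 1.5 of 30, so the number is no more than chance gives. The male of litter 3 was the highest male, at 33.1, but the male of litter 4, at 9.13, narrowed the gap.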

How the results depend on the processing

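With the replicate block (litter), 29 genes differed by sex in place of 6; for the ratio of Myh7 to Myh6 the block left the mean difference of 0.59 as it was, with an exact permutation p of 0.125. The block changed no call on the heavy chains. The ratio between the sexes ran from -0.23 (without the male of litter 3) to 1.45 as single libraries were left out. Likewise the sex difference of Myh7 ran from -0.62 (without the male of litter 3) to 1.62 (without its female) and that of Myh10 from -0.029 (without the female of litter 3) to 0.11. That of Myh9 ran from -0.20 to 0.10, and was above 0 without the female of litter 1 (0.025) or 2 (0.058) or the male of litter 3 (0.033) or 4. That of Myh11 ran from -1.36, leaving out the male of litter 4, to -0.22, leaving out that of litter 3. For Myh6 the range was -0.38 to -0.12 (leaving out the litter 3 female and male, in that order), and for Myh14 it was -0.29 to -0.022 (leaving out females 4 and 2). Genes that differed by sex ran from 5 to 7 as single libraries were left out, and were 8 without both libraries of litter 3 and 9 under DESeq2 or without a filter on low counts. Genes that differed by litter ran from 1898 (without litter 3) to 4586, and those of litter 3 from 1704 (without its female; 2234 without its male) to 4177 as litters or libraries were left out. The log2 ratio of litter 3 against the others ran from 2.95 to 3.92. The causes were not tested. Depth limits Myh3, Myh8 and the microRNA entries, with at most 43 counts, and those entries are also shorter than a read. Most differences between litters rest on 2 libraries each.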
